A study of Mus musculus with 14 samples.

Results

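Interleukin 1 family ligands and receptors were followed across 14 arrays of mouse mast cells. The members were the genes Il1a, Il1b, Il18, Il1rn, Il1r1, Il1rap, Il1rl1 and Il1r2, 8 in all, and they were found by the gene name that the array design gives each probe. This picked 17 of the 41174 probes on the array. Of these, 13 probes of 7 genes were well above background on at least 3 arrays and entered a fit over 16012 genes, whereas Il1rn did not. Bone marrow-derived mast cells (BMMCs) are immature mast cells, grown here from mouse bone marrow with IL-3 for 4 to 6 weeks, and the labels give over 97% mast cells by the surface markers Kit and FcεRIα. The mice were wild-type or homozygous knockout for Pla2g3, the gene of a secreted phospholipase A2, and the strain label of all samples combines C57BL/6 and 129Sv-N3. BMMCs before coculture filled 3 wild-type and 4 knockout arrays. Cells after 96 h on a layer of Swiss 3T3 cells, a mouse fibroblast line, with 100 ng/ml stem cell factor filled 4 wild-type and 3 knockout arrays, and the labels call these cells mature. They were lifted, reseeded and collected as the nonadherent cells, over 99% of them with both markers per the labels. The labels give stem cell factor for coculture alone, and what it did cannot be told apart from what the fibroblast layer did. Age, sex and the number of mice are not given in the sources used here, and p-values therefore measure the spread between these samples, which may be technical.

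Interleukin 1α (Il1a) and interleukin 1β (Il1b) are ligands of the same receptor, Il1r1, which pairs with the accessory chain Il1rap and signals through Myd88 and IRAK kinases to NF-κB and MAP kinases. Il1b and interleukin 18 (Il18) are made as inactive precursors that caspase 1 (Casp1) cleaves. The receptor antagonist Il1rn occupies Il1r1 without a signal, and the decoy receptor Il1r2 binds interleukin 1 but lacks the signalling domain. Il1rl1, also called ST2, is the receptor for interleukin 33 (Il33), uses the same accessory chain, and is known as a marker of mast cells, which respond to Il33 released by stromal cells.

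A level here is the log2 of the deposited spot intensity minus that of the array's own 75th percentile, which therefore sits at 0. Levels of different probes are not comparable with each other. The 75th percentile lay between 69.4 and 176 signal units, and 42.6% to 55.9% of probes per array were well above background. Precision is limited by how many arrays each group has. The arrays lay on 4 slides, of which slide 4 was scanned on another date. Slide 4 held wild-type cocultured 3 and knockout cocultured 3, and on the second principal component each of these fell among cocultured arrays of the opposite genotype (-90.7 and 26.1, against 23.5 to 66.6 in the other wild-type and -79.1 and -76.8 in the other knockout cocultured arrays). Results that rest on this pair are given with and without it, and leaving it out was decided with the data already seen. Whether the labels of these 2 arrays were exchanged cannot be settled from the files used here, and every value by genotype after coculture takes them as given. The Pla2g3 probe was at -4.69 to -2.95 in wild-type BMMCs and at -1.96 to -1.31 in BMMCs labelled knockout (log2 difference 2.22, SE 0.54, adjusted p = 1 by limma), thus higher in the latter. After coculture it read -4.33, -3.25, -4.14 and -2.22 in wild-type and -3.21, -1.78 and -1.97 in knockout cells, which overlapped. Of these, -4.14 and -1.97 were the slide 4 pair. Where this probe lies relative to the deleted part of the gene is not given in the sources used here, so it checks no label, and "knockout" below means the arrays labelled so.

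Of the defining mast cell markers, Kit, Fcer1a and Cpa3 were above background on all 14 arrays. Ms4a2 was so on every array except knockout cocultured 2, where it had no value. The summed signal of 9 mast cell markers was between 10.15 and 11.24 on the log2 scale on every array. Of 27 fibroblast markers, 3 to 7 were above background on BMMC arrays and 14 to 24 on cocultured arrays. Their summed log2 level was 2.69 to 3.33 in BMMCs of either genotype, 4.22 to 8.82 after coculture of wild-type cells and 4.15 to 6.12 after coculture of knockout cells. Col1a1, Col3a1 and Dcn, which define fibroblasts, were above background on no BMMC array and on all 7 cocultured arrays. In these bulk samples, more cells of a type and more RNA per cell cannot be told apart. Of 14 macrophage markers, 5 to 12 were above background on BMMC arrays and 6 to 9 on cocultured arrays, with summed log2 levels of 1.99 to 5.84 and of 2.6 to 3.72. Of 11 macrophage markers tested, 2 rose and 1 fell with coculture in wild-type cells, where 6.02% of all genes rose and 6.87% fell. In knockout cells 2 rose and 0 fell, where 7.78% and 6.5% of all genes did. Of the defining macrophage markers, Cd14 rose with coculture by 4.04 in wild-type and 2.51 in knockout cells (adjusted p = 0.00104 and 0.0177) and Cd68 by 2.69 and 2.95 (adjusted p = 0.0379 and 0.0248), on the log2 scale. Adgre1 (-1.20 and -1.30) and Csf1r (0.14 and 0.95) did not pass, and the part of macrophage RNA in the coculture results below was not tested. Neutrophil markers had a summed log2 level of 2.7 on wild-type BMMC 2, also the array with the highest macrophage sum (5.84), and of -1.98 to -0.89 on all other arrays. Dendritic cell and lymphocyte markers had sums of at most 2.25 on every array, and the 4 basophil markers, which mast cells partly share, 5.33 to 6.59.

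**Figure D1:**
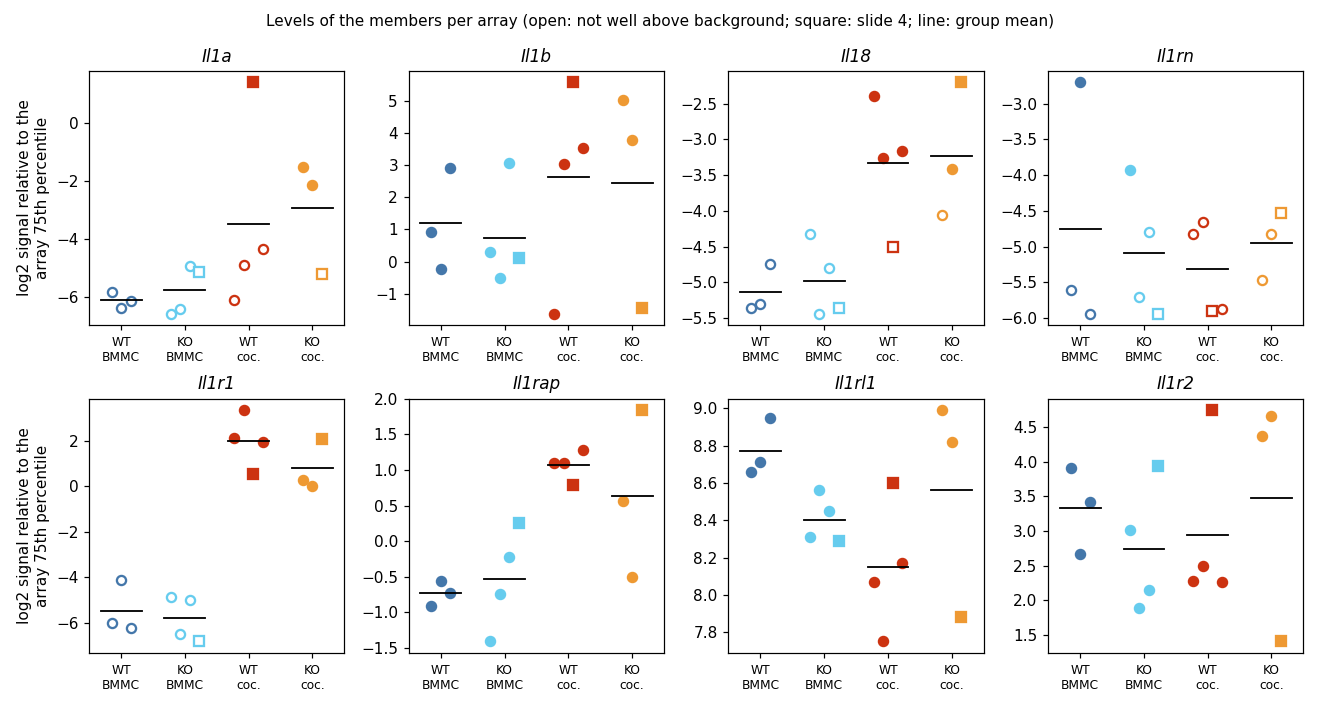
Log2 level of each of the 8 members on every array (y axis, log2 signal relative to the array's 75th percentile), with 1 panel and y scale per gene and groups along the x axis (WT, wild-type; KO, labelled knockout; coc., cocultured). Open points were not well above background, squares are arrays of slide 4 and lines are group means; Il1r1 was above background on all 7 cocultured arrays and on no BMMC array, and slide 4 held the highest wild-type and the lowest knockout cocultured value of Il1b and Il1r2.

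Among the ligands, Il1a was not well above background on any of the 7 BMMC arrays. It was measured on 3 of 7 cocultured arrays, at 1.40 on wild-type cocultured 3 and at -1.51 and -2.13 on knockout cocultured 1 and 2. The remaining cocultured arrays read -6.08, -4.90 and -4.34 in wild-type and -5.18 in knockout cells, none of them well above background. Group means, which include signals below background, were -6.09 ± 0.27 (SD, n = 3) and -3.48 ± 3.33 (SD, n = 4) in wild-type cells, and the log2 change of 2.61 (SE 1.41) did not pass (adjusted p = 0.268 by limma, as for all adjusted p-values below). In knockout cells the change was 2.81 (SE 1.41, adjusted p = 0.206). A second Il1a probe gave the same 3 arrays above background, at 1.09, -2.10 and -3.01. This probe crosses an intron, and its 60 bases, read from the deposited files, span chr2:129128725-129130459 on the minus strand of mm9, with 1 of 3 reading frames free of stop codons. It is shown because it lies in spliced RNA and repeats the pattern of the probe that stands for the gene.
Il1a, A_51_P438283: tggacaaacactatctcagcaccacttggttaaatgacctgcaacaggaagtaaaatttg

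Il1b was well above background on all 14 arrays and varied more within groups than between them. Its levels were 0.93, -0.22 and 2.92 in wild-type BMMCs, and 0.30, -0.50, 3.06 and 0.11 in knockout BMMCs. In wild-type cocultured cells they were -1.62, 3.04, 5.58 and 3.53. In knockout cocultured cells they were 5.04, 3.78 and -1.44. The groups overlapped throughout. The third BMMC array of each genotype, both on slide 3, was the highest of its group, and the same cocultured arrays that had measurable Il1a held the 3 highest Il1b levels. The change with coculture was 1.42 (SE 1.71, adjusted p = 0.674) in wild-type and 1.72 (SE 1.71, adjusted p = 0.548) in knockout cells, and neither passed. Across the 14 arrays, which share 4 groups, Il1a and Il1b levels had a Pearson r of 0.777.

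Il18 was not well above background on any BMMC array, where it read -5.44 to -4.32. Its levels in wild-type cocultured cells were -2.39, -3.26, -4.51 and -3.16, and in knockout cocultured cells -4.06, -3.42 and -2.20, with the -4.51 and -4.06 not well above background. Cocultured and BMMC arrays did not overlap within either genotype. Il18 rose with coculture in wild-type cells (log2 change 1.81, SE 0.51, adjusted p = 0.0346), at least 1.63-fold, and in knockout cells (1.75, SE 0.51, adjusted p = 0.0381), at least 1.65-fold. Here and below, "at least" sets the cocultured mean against the higher of each BMMC array's own signal and the lowest signal that array called well above background, so it understates a change that starts below background. Both calls were close to the threshold and were lost with the slide as a block (adjusted p = 0.0899 and 0.0615). Normexp background correction took the changes to -0.06 and 0.72 (adjusted p = 0.928 and 0.143), and both were 0 with the authors' values. Normexp added an offset of 50 signal units, above every Il18 signal (at most 32.1), and the authors' values were floored at 1. The offset shrinks changes at such low signals and the floor can erase them, so neither alternative decides these calls. Leaving out any wild-type array but cocultured 3 ended the wild-type call (adjusted p of 0.0629 to 0.114), and leaving out wild-type BMMC 1 or 2, knockout BMMC 2, 3 or 4, or knockout cocultured 2 or 3 ended the knockout call (0.0516 to 0.102). Il18 was lowest among cocultured arrays on wild-type cocultured 3 and knockout cocultured 1 and 2, the arrays with the lowest summed fibroblast levels (4.22, 4.15 and 4.87), and the part of fibroblast RNA in its signal was not tested. Within slides the measured differences, taken against signals below background, were 2.90 and 1.54 in wild-type and 0.26, 2.02 and 3.15 in knockout cells. The Il18 probe also crosses an intron, at chr9:50387470-50389598 on the plus strand of mm9, and is shown because the ligand's only measure is this sequence.
Il18, A_51_P153565: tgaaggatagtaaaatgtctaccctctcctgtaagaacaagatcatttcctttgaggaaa

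Il1rn, the receptor antagonist, gave no level above background in cocultured cells with either of its probes. The probe A_52_P431159 was measured on 2 arrays, at -2.70 on wild-type BMMC 2 and -3.93 on knockout BMMC 1, and A_51_P307166 on none. These were also the arrays with the highest summed macrophage levels, 5.84 and 3.98, and the part of macrophage RNA in the Il1rn signal was not tested. No test was made for this gene.

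Among the receptors, Il1r1 was the member with the largest change. It was not well above background on any BMMC array, where readings lay between -6.81 and -4.13. In wild-type cocultured cells it was at 2.12, 3.35, 0.54 and 1.96, and in knockout cocultured cells at 0.30, 0.01 and 2.07. Every cocultured array thus stood above every BMMC array, and above its own 75th percentile. The rise was at least 64.2-fold in wild-type cells (measured log2 change 7.45, SE 0.76, adjusted p = 6.24e-05) and at least 27.4-fold in knockout cells (6.58, SE 0.76, adjusted p = 0.000219). Within slides the measured differences were 6.25 and 8.88 in wild-type and 5.15, 6.49 and 8.87 in knockout cells, and the call held with the slide as a block (adjusted p = 0.00139 and 0.00197). With the authors' normalized values the knockout change of 4.38 did not pass (adjusted p = 0.214), and with normexp the changes were 3.09 and 2.31 (adjusted p = 0.000482 and 0.006). The genes most like Il1r1 over the 14 arrays were Dcn (Pearson r = 0.983), Cxcl5 (0.983) and Cav1 (0.982). Of these only Dcn is on the fibroblast marker list, and each r includes the step from BMMC to cocultured arrays. Among cocultured arrays Il1r1 was lowest on wild-type cocultured 3 and knockout cocultured 1 and 2. These had the lowest summed fibroblast levels (4.22, 4.15 and 4.87, against 6.12 to 8.82 on the others). The part of fibroblast RNA in the Il1r1 signal was not tested.

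**Figure D2:**
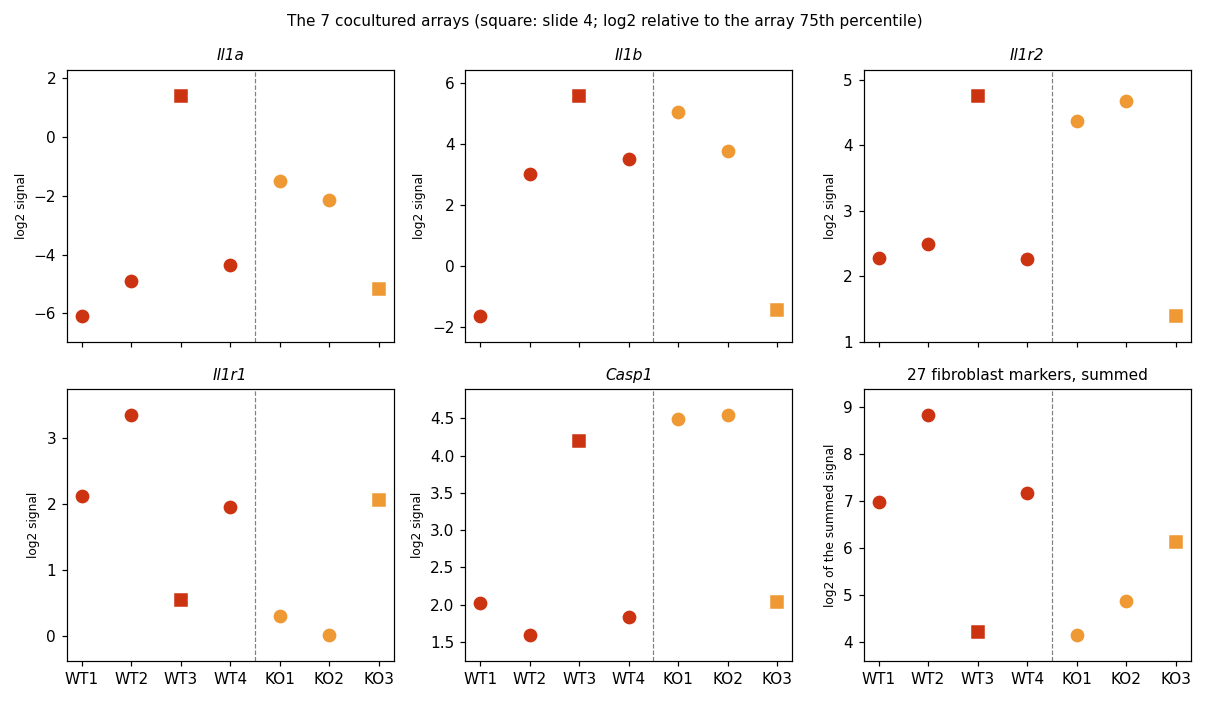
Levels of Il1a, Il1b, Il1r2, Il1r1 and Casp1 and the summed level of 27 fibroblast markers on the 7 cocultured arrays (x axis: WT, wild-type; KO, labelled knockout; squares: slide 4; y axis: log2 relative to the array's 75th percentile). Casp1 is at 4.19 on wild-type cocultured 3 and at 4.49 and 4.54 on knockout cocultured 1 and 2, against 1.59 to 2.03 on the other 4 arrays, and in every panel these 3 arrays lie on the same side of knockout cocultured 3.

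Il1rap, the accessory chain that Il1r1 and Il1rl1 share, was above background on all 14 arrays with the probe that stands for the gene, which targets a cDNA clone (AK045686). It was at -0.91, -0.56 and -0.73 in wild-type BMMCs, and at 1.1, 1.1, 0.79 and 1.28 after their coculture, without overlap. Knockout BMMCs were at -1.41, -0.74, -0.22 and 0.25, and knockout cocultured cells at 0.57, -0.50 and 1.84, which overlapped. Il1rap rose 3.49-fold in wild-type cells (log2 change 1.80, SE 0.48, adjusted p = 0.0263), and the change of 1.17 in knockout cells (SE 0.48, adjusted p = 0.125) did not pass. The difference between these changes, -0.64 (SE 0.68, adjusted p = 0.994), did not pass either. The wild-type call was lost with the slide as a block (1.45, adjusted p = 0.0663) or without any wild-type array other than cocultured 3 (adjusted p of 0.0523 to 0.0895), and the knockout change passed without knockout cocultured 2 (1.74, adjusted p = 0.0319). With the authors' values, of which 59% to 59.8% per array were below 0 and set to 1, the changes were 7.23 (adjusted p = 0.0474) and 3.30 (adjusted p = 0.484). Values set to this floor can widen a change, so neither is read as its size. Il1rap too was lowest among cocultured arrays on the 3 arrays with the lowest summed fibroblast levels, whose part in its signal was not tested. Within slides the differences were 1.67 and 1.92 in wild-type and 1.99, 0.23 and 1.59 in knockout cells.

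Il1rap is read by 5 probes, of which 3 entered a fit over all probes, and these target different RNAs. The one for the membrane form (NM_008364) was above background on no wild-type BMMC array and on all 4 wild-type cocultured arrays, at -2.95, -3.04, -3.19 and -1.89. It rose at least 2.4-fold there (2.61, SE 0.65, adjusted p = 0.021), while its change in knockout cells was 0.70 (SE 0.65, adjusted p = 0.514), where 1 of 4 BMMC arrays (-3.99) and 1 of 3 cocultured arrays (-2.42, on knockout cocultured 3) were above background. The one for the soluble form (NM_134103), which lacks the part inside the cell, was above background on every array, with changes of 0.91 (SE 0.36, adjusted p = 0.126) and 1.0 (SE 0.36, adjusted p = 0.0836) that did not pass. Over all 23584 probes fitted, 12% were called with coculture in wild-type and 13.6% in knockout cells.

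Il1rl1, the Il33 receptor, was above background on all 14 arrays with each of its 3 probes. The probe for the membrane form (NM_001025602), which stands for the gene, read 8.66, 8.71 and 8.95 in wild-type BMMCs and 8.31, 8.56, 8.45 and 8.29 in knockout BMMCs. After coculture it read 8.07, 7.75, 8.60 and 8.17 in wild-type and 8.99, 8.82 and 7.88 in knockout cells. Wild-type cocultured arrays lay below wild-type BMMC arrays without overlap, but the change of -0.63 (SE 0.29, adjusted p = 0.183) did not pass, and the change in knockout cells was 0.16 (SE 0.29, adjusted p = 0.766). Without the cocultured pair of slide 4 the wild-type change was -0.78 (SE 0.18, adjusted p = 0.0105). The order of the group means was wild-type BMMC (8.77 ± 0.16, SD, n = 3), knockout cocultured (8.56 ± 0.60, SD, n = 3), knockout BMMC (8.40 ± 0.13, SD, n = 4) and wild-type cocultured (8.15 ± 0.35, SD, n = 4). Neighbours in that order differed by less than the larger of their SDs. The probe that ends in the soluble form (NM_010743), which is secreted and binds Il33 without signalling, ranged from 4.30 to 5.39, with changes of -0.06 (SE 0.26, adjusted p = 0.927) and 0.46 (SE 0.26, adjusted p = 0.271). The probe shared by both forms ranged from 0.55 to 2.23, with changes of 0.09 (SE 0.36, adjusted p = 0.921) and 0.58 (SE 0.36, adjusted p = 0.313). The shared probe is shown because it crosses an intron, at chr1:40498342-40499204 on the plus strand of mm9, and so reads spliced RNA of either form.
Il1rl1, A_52_P19955: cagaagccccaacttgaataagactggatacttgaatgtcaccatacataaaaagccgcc

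**Figure D3:**
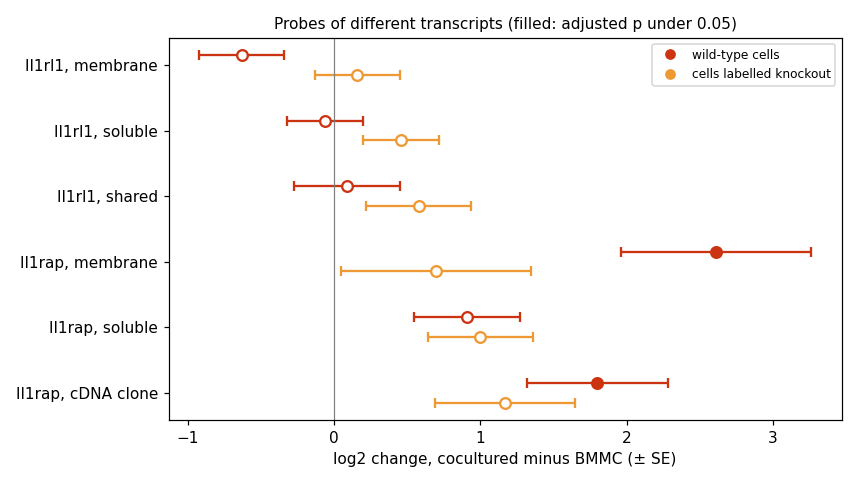
Log2 change with coculture (x axis, ± SE of the fit over all probes) for 3 Il1rl1 and 3 Il1rap probes that read different transcripts, in wild-type cells and cells labelled knockout. Filled points passed an adjusted p of 0.05: the Il1rap probes of the membrane form (2.61) and of a cDNA clone (1.80) in wild-type cells, and none in knockout cells.

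Il1rl1 has a distal and a proximal start, and the distal start is known for its use in mast cells and other blood cells and the proximal start for its use in fibroblasts. Since GATA factors are regulators of mast cell genes, and this receptor was above background on all arrays, the 250 bases before each start are shown, from RefSeq on GRCm38.p6. Capitals mark the word AGATAA on either strand, also where its first letter is T, its last letter is G, or both. The distal window, chr1:40429320-40429569 on the plus strand, held 5 such words. The proximal window, chr1:40439379-40439628 on the plus strand, held 1. The windows of all members were searched: those of Il1b and Il1r2 held 1 word each, and those of Il1a, Il18, Il1r1, Il1rap and Il1rn held 0. Of 32807 windows of this length before RefSeq starts, 26.6% held at least 1 word, and 14 windows (0.0427%) held 5 or more. These matches describe the letters and are no measure of binding, and the array probes do not tell which start was used.
Il1rl1, distal: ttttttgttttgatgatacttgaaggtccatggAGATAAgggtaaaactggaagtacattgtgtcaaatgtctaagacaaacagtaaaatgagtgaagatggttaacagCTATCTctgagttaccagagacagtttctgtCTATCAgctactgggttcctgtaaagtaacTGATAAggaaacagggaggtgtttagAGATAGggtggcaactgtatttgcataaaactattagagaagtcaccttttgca
Il1rl1, proximal: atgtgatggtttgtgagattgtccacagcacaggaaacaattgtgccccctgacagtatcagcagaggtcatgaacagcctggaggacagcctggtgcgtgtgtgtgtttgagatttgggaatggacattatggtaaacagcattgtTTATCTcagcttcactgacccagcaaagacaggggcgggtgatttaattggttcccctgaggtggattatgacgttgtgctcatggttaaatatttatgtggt

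Il1r2, the decoy receptor, was above background on every array with both probes. It was at 3.91, 2.66 and 3.42 in wild-type BMMCs and at 3.01, 1.88, 2.14 and 3.94 in knockout BMMCs. After coculture it was at 2.28, 2.49, 4.75 and 2.26 in wild-type and at 4.37, 4.67 and 1.40 in knockout cells. The high cocultured arrays were again wild-type cocultured 3 and knockout cocultured 1 and 2, which read 2.92, 2.76 and 3.07 with the second probe, against -0.42 to 1.03 on the other cocultured arrays. The changes with coculture were -0.38 (SE 0.82, adjusted p = 0.833) in wild-type and 0.74 (SE 0.82, adjusted p = 0.602) in knockout cells, and neither passed. Without the slide 4 pair the knockout change was 1.77 (SE 0.52, adjusted p = 0.026) and the wild-type change -0.99 (SE 0.49, adjusted p = 0.181).

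In wild-type cells, 3 of 7 tested members rose with coculture (Il18, Il1r1 and Il1rap) and 0 fell, where 6.02% of all 16012 genes rose and 6.87% fell. In knockout cells, 2 of 7 rose (Il18 and Il1r1) and 0 fell, where 7.78% of all genes rose and 6.5% fell. The median change over all genes was -0.06 and 0.07. Without the slide 4 pair, 4 of 7 members were called in wild-type cells (Il1rl1 added, lower) where 23.6% of genes were called, and 4 of 7 in knockout cells (Il1a and Il1r2 added, higher) where 30.9% were. Il1a in knockout cells was then at least 4.47-fold higher (measured 3.93, SE 0.56, adjusted p = 0.000948). These comparisons share no arrays, but they share the estimate of the spread.

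**Figure D4:**
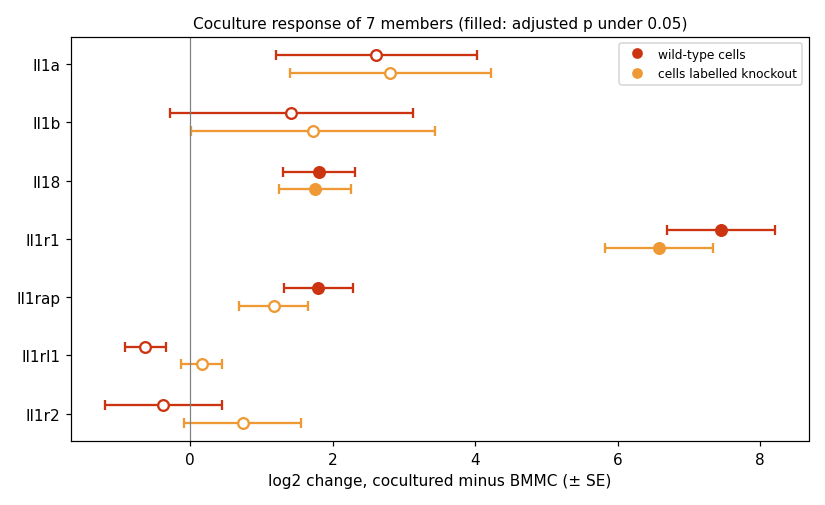
Log2 change with coculture (x axis, cocultured minus BMMC, ± SE from limma) for the 7 tested members in wild-type cells and cells labelled knockout. Filled points passed an adjusted p of 0.05; Il1r1 lies farthest from 0, at 7.45 and 6.58, and the intervals of Il1b and Il1r2 are wide or near 0.

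Knockout and wild-type cells were compared to see what loss of Pla2g3 did to these genes. In BMMCs 0 of 7 members were called (0% of all genes), and the differences ranged from -0.59 for Il1r2 to 0.34 for Il1a, each with an adjusted p of 1. Il1r2 was lower in knockout BMMCs in each of the 3 pairs that share a number and a slide (-0.90, -0.78 and -1.28), and the fit on these pairs gave -0.99 (SE 0.15, adjusted p = 0.834), which did not pass. With its membrane-form probe, Il1rl1 was lower in every knockout than in every wild-type BMMC array, by 0.37 (SE 0.29), which did not pass. With its soluble-form probe (-0.31, SE 0.26) and its shared probe (-0.22, SE 0.36) the groups overlapped, and neither difference passed. These SEs use 1 spread over all 4 groups. For the membrane-form probe the SDs were 0.16 and 0.13 in wild-type and knockout BMMCs, against 0.35 and 0.60 after coculture. A fit on the 2 BMMC groups alone also called 0 of 16012 genes. After coculture 0 of 7 were called (0% of all genes), with differences from -1.20 (SE 0.76, adjusted p = 0.796) for Il1r1 to 0.54 (SE 1.41, adjusted p = 0.926) for Il1a. The genotype difference in the coculture response was called for 0 of 7 (0% of all genes), and the lowest unadjusted p among them was 0.0736, for Il1rl1 (0.78, SE 0.40, adjusted p = 0.994). At an unadjusted p under 0.05, 169, 607 and 131 of all genes passed in these 3 comparisons, and 0 members did.

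The cocultured genotype comparison turned on the slide 4 pair. On slide 2, knockout minus wild-type was 3.95 for Il1a, 5.40 for Il1b, 2.39 for Il1r2 and -2.11 for Il1r1. On slide 4, the other slide with both cocultured groups, it was -6.58, -7.02, -3.35 and 1.52. The lower Il1a reading was below background on each slide, so its differences are not exact. The sign was thus opposite on the 2 slides for each of these members, as it was for Il18 (-1.02 and 2.30), Il1rl1 (0.75 and -0.72) and Il1rap (-1.61 and 1.05). Without the pair, which leaves 3 wild-type and 2 knockout cocultured arrays, 4 of 7 members were called, where 25.3% of all genes were. Knockout cells were then at least 4.76-fold higher in Il1a (measured 3.28, SE 0.59, adjusted p = 0.00463), since no remaining wild-type cocultured array was above background. They were also higher in Il1r2 (2.17, SE 0.55, adjusted p = 0.0176) and Il1rl1 (0.91, SE 0.20, adjusted p = 0.0104), and lower in Il1r1 (-2.32, SE 0.75, adjusted p = 0.0462). The difference for Il1b, 2.76 (SE 1.54, adjusted p = 0.209), did not pass even then. The difference in response was called for 3 of 7 (12.7% of all genes): Il1a (2.95, SE 0.77, adjusted p = 0.034, with 3 of its 4 groups below background), Il1r2 (2.76, SE 0.72, adjusted p = 0.0338) and Il1rl1 (1.28, SE 0.26, adjusted p = 0.0159). The pair was left out because its arrays stood with the other genotype over all genes, so these values describe the remaining arrays and do not stand in for a test with all of them. Over all alternatives, the adjusted p of the cocultured difference ran from 0.00463 to 1 for Il1a and from 0.0111 to 1 for Il1r2.

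Other genes of the pathway were taken from 5 lists. Of 13 other family genes on the array, 8 were tested. Il33, the ligand of Il1rl1, was above background on no BMMC array and on all cocultured arrays, at -0.44 to 1.31 in wild-type and 0.24 to 1.47 in knockout cells. It rose at least 24.4-fold (adjusted p = 1.49e-05) and at least 26.7-fold (adjusted p = 8.38e-06). Its highest cocultured level, 1.47, was on knockout cocultured 2, where the summed fibroblast level was 4.87. The lowest, -0.44, was on wild-type cocultured 4, where that sum was 7.17. On the remaining cocultured arrays it read 0.24, 0.45, 0.56, 0.99 and 1.31, beside sums of 4.15, 4.22, 6.12, 6.98 and 8.82. The part of fibroblast RNA in the Il33 signal was not tested. Il1rl2, the receptor of another ligand branch of the family, rose 12.6-fold in wild-type (adjusted p = 0.000312) and, with 2 of 4 BMMC arrays above background, 22.1-fold as measured in knockout cells (adjusted p = 9.58e-05). Il18bp, a secreted protein that binds Il18, fell by 1.62 in wild-type cells (SE 0.43, adjusted p = 0.0275), and its change of -0.36 (SE 0.43, adjusted p = 0.635) in knockout cells did not pass. The remaining 5 passed in neither genotype. Il18r1, the Il18 receptor chain, named outside the naming rule, was among them, at -0.91 (adjusted p = 0.147) and -0.88 (adjusted p = 0.146). In all, 2 of the 8 rose in each genotype and 1 fell in wild-type cells, beside the shares of all genes given above. The list's median change was -0.01 in wild-type and 0.11 in knockout cells.

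Of 13 tested genes for maturation of the ligands, 2 rose and 1 fell in each genotype, where 6.02% of all genes rose and 6.87% fell in wild-type and 7.78% and 6.5% in knockout cells, and the median changes were 0.39 and 0.37. Nlrp3, the inflammasome sensor, rose 3.09-fold in wild-type (adjusted p = 0.0356) and 4.42-fold in knockout cells (adjusted p = 0.00978). Casp4, the caspase of the noncanonical inflammasome, rose 3.04-fold (adjusted p = 0.0164) and 2.75-fold (adjusted p = 0.0259). P2rx7, the ATP-gated channel that starts inflammasome assembly, fell by 2.03 (SE 0.49, adjusted p = 0.0171) and by 1.87 (SE 0.49, adjusted p = 0.0253). Casp1 itself did not pass (-0.63, adjusted p = 0.615, and 0.61, adjusted p = 0.589). It was at 4.19 on wild-type cocultured 3 and at 4.49 and 4.54 on knockout cocultured 1 and 2, against 1.59 to 2.03 on the other cocultured arrays and 2.64 to 3.44 in BMMCs, so it was highest on the arrays where Il1a and Il1r2 were highest. Casp1 was chosen for this remark after its values were seen.

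Of 22 adaptors and kinases below the receptors, 1 rose and 1 fell in wild-type cells and 1 rose and 2 fell in knockout cells, with a median change of 0.20 in each. These shares were near those of all genes or below them (6.02% and 6.87% in wild-type, 7.78% and 6.5% in knockout cells), so the genes below are single results and not a result about the list. Ikbkg, the regulatory subunit of the IκB kinase complex, fell by 1.5 (SE 0.37, adjusted p = 0.0182) and by 1.51 (SE 0.37, adjusted p = 0.0184). Peli1, a ubiquitin ligase that acts on IRAK kinases, rose 3.13-fold in wild-type cells (adjusted p = 0.0108), with a change of 0.70 (adjusted p = 0.23) in knockout cells. In knockout cells Map3k8, a MAP kinase kinase kinase, fell by 3.36 as measured (SE 0.80, adjusted p = 0.0161), with 1 of 3 cocultured arrays above background, and Ube2n, a ubiquitin-conjugating enzyme, rose 1.67-fold (adjusted p = 0.0461). Their wild-type changes were -2.17 (adjusted p = 0.0984) and 0.66 (adjusted p = 0.0742). Myd88 (-0.09 and -0.14), Irak4 (-0.68 and -0.34) and Irak1 (0.15 and -0.15), named for their role at the receptor and outside the naming rule, did not pass.

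Inhibitors of the signal moved in both directions. Of 13 tested, 5 rose and 3 fell in wild-type cells and 6 rose and 3 fell in knockout cells, beside 6.02% and 6.87% of all genes in wild-type and 7.78% and 6.5% in knockout cells. The median changes were 0.99 and 0.98. Socs1, a suppressor of cytokine signalling, fell by 5.11 (SE 0.35, adjusted p = 3.02e-06) and by 5.28 (SE 0.35, adjusted p = 2.24e-06). Irak3, an IRAK family member without kinase activity that restrains the pathway, fell by 2.25 (SE 0.32, adjusted p = 0.000668) and by 2.03 (SE 0.32, adjusted p = 0.0016). Nfkbia, the IκBα that holds NF-κB in the cytoplasm and is itself an NF-κB target, rose 11.8-fold (adjusted p = 0.00151) and 12.5-fold (adjusted p = 0.00153). Tnip1, a partner of the A20 ubiquitin-editing enzyme, rose 3.98-fold (adjusted p = 0.00256) and 2.24-fold (adjusted p = 0.0416), and Tollip, an adaptor that restrains IRAK1, 1.99-fold (adjusted p = 0.0162) and 2.25-fold (adjusted p = 0.00734).

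Of 18 tested NF-κB target genes that interleukin 1 is known to induce, 9 rose in wild-type cells, where 6.02% of all genes did, and 11 in knockout cells, where 7.78% did. None of the 18 fell in either, and the median changes were 2.89 and 2.53. Cxcl1, a neutrophil chemokine, rose at least 243-fold (adjusted p = 1.95e-05) and at least 63.2-fold (adjusted p = 0.000134). Relb, an NF-κB subunit, rose 11.5-fold (adjusted p = 2.79e-05) and 8.66-fold (adjusted p = 8.98e-05), and Ptgs2, the inducible cyclooxygenase, at least 29.9-fold (adjusted p = 0.000454) and at least 40.4-fold (adjusted p = 0.000271). Vcam1, an adhesion molecule of stromal and endothelial cells, rose at least 97.4-fold (adjusted p = 0.000502) and at least 20.6-fold (adjusted p = 0.00359). Tnf, an inflammatory cytokine, rose 12.4-fold (adjusted p = 0.00129) and 25.6-fold (adjusted p = 0.000293). The lists were described by their counts and were not tested as sets. They overlap: Nfkbia and Tnfaip3 count among both the inhibitors and these targets, and Sigirr among both the inhibitors and the other family genes. Fibroblast markers moved in the same comparisons: of 25 tested, 20 rose in wild-type and 13 in knockout cells, and 1 fell in each. The part of fibroblast RNA in the list changes was not tested.

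**Figure D5:**
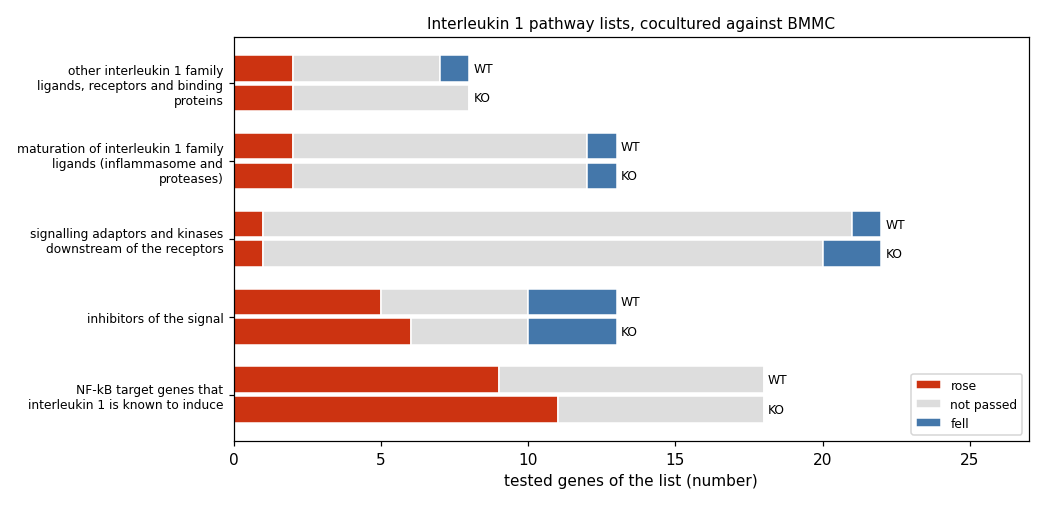
Number of tested genes of 5 interleukin 1 pathway lists (x axis) that rose, fell or did not pass an adjusted p of 0.05 with coculture, in wild-type cells (WT) and cells labelled knockout (KO). NF-κB target genes had the most rises (9 and 11 of 18) and no fall, and the inhibitors had rises and 3 falls in each genotype. Nfkbia and Tnfaip3 count in both of these lists.

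For each of the 5 members above background on at least 7 arrays, the genes most like it in level over the 14 arrays were taken, a description in which the points share groups and slides. For Il1r2 these were Glo1 (Pearson r = 0.938), Gm2a (0.932) and Fez1 (0.929), and for Il1rl1 Fam220a (0.95), Sec11a (0.94) and Nfyb (0.936). For Il1rap they were Aamp (0.957), Nrip1 (0.94) and Fgfr1 (0.932), and for Il1b Vps35l (0.917), 2610021A01Rik (0.913) and Carnmt1 (0.907). Among the members, Il1r1 went with Il18 (r = 0.873) and Il1rap (0.812), and Il1r2 with Il1a (0.656) and Il1rl1 (0.627), while Il1rl1 and Il1rap went opposite ways (-0.602).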

How the data were processed

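Spot intensity as deposited came from Agilent Feature Extraction 9.5.1.1, per the submitters' processing notes, run on single-colour arrays hybridised with RNA amplified and labelled from 450 ng per sample, per the labels. Probe positions are on mm9, per the scanner files. The authors also deposited a table of normalized intensity values with 59% to 59.8% below 0, which served as an alternative (floor of 1). From the scanner files, log2 of the processed signal was taken minus each array's 75th percentile. Control spots and 74 to 326 outlier spots per array were left out, and repeated spots were averaged. RefSeq gave the gene name of 24844 of 41174 probes through the accession, 6045 through the symbol and 1810 through a synonym, and 8475 kept the file's name. The fit kept the 23616 probes that 3 or more arrays measured well above background, less 32 with missing values. Each of 16012 genes was represented by its brightest probe on average. Between 0 and 3 probes per array were saturated.

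limma 3.58.1 in R 4.3.3, with data.table (version 1.17.8), fitted 4 groups with 5 contrasts. Tests were two-sided with Benjamini-Hochberg adjustment over all genes, and "rose", "fell", "passed" and "called" mean an adjusted p under 0.05. The procedure was tested on simulated data with independent noise, equal spread across groups and no slide effect. That test does not cover effects such as that of the slide 4 pair. The text names all members, up to 4 passing genes per list and coculture comparison with the lowest adjusted p, the defining cell type markers, Pla2g3 and the 3 genes most like each member measured on at least 7 arrays. Members and lists were chosen with earlier results of these data known. Same-numbered BMMC arrays of the genotypes shared a slide and their deviations from the group means correlated (r of 0.197, 0.499 and 0.489 across genes). For same-numbered cocultured arrays of the genotypes, r was -0.434, -0.151 and -0.548. Between same-numbered BMMC and cocultured arrays of a genotype it ran from -0.0569 to 0.121. For the same-numbered BMMC arrays of the genotypes, number and slide cannot be told apart. The labels do not say that equal numbers share an animal or culture. Alternatives covered background correction (normexp, offset 50), scaling, the authors' values, filters, probe choice, replicate and slide blocks, array weights, 2-group fits and each array left out. The normexp offset shrinks changes at low signals, and the floor on the authors' values can shrink or widen them.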

Additional observations from a re-analysis of the deposited data

Results flagged for a closer look

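Il1r2 in wild-type cocultured cells stood out for 1 array: wild-type cocultured 3 was at 4.75 against 2.26 to 2.49 on the other 3 arrays, a gap of 0.91 of the group's range, which is past Dixon's critical value for a group of 4. Chance alone puts about 1 in 20 such groups past that value.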

How the results depend on the processing

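Over all alternatives for the members' changes, 800 values kept their side of the threshold with no change of sign (a value of exactly 0 counts as none), 33 lost a call, 22 gained one and 65 changed sign. In wild-type cells, 1 member was called with coculture with the replicate block and 1 with the slide as a block (Il1r1 in each), and 1 to 3 with an array left out. In knockout cells, 0 were called with the authors' values, 1 with normexp, no filter on dim probes, a filter on all arrays of a group, the replicate block, the slide as a block or only the 2 groups, 5 with array weights, 4 without the slide 4 pair (chosen after seeing the data) and 1 to 2 with an array left out. For cocultured genotypes, 5 were called with array weights and 4 without the pair, and for the difference in response 2 and 3. The paired fit of BMMCs changed no call there. Calls over all genes moved likewise: 2064, 2286, 0, 0 and 0 in the 5 comparisons, 5063, 6818, 2, 6859 and 3496 with array weights, and 3786, 4952, 0, 4049 and 2037 without the pair.

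Signs changed as follows, and the cause was not tested. With coculture, Il18 in wild-type cells was -0.06 with normexp and Il1r2 0.03 with the authors' values, and Il1rl1 in knockout cells was -0.37 with normexp, -0.27 with quantile scaling, -0.30 with the authors' values and -0.05 to 0.50 with an array left out. Between BMMC genotypes, Il18 was -0.18 and Il1a -0.22 with normexp, Il1a -0.02 with the slide as a block or array weights, Il1r1 0.01 and Il1rap -0.05 in BMMCs alone with the replicate block, Il1rap -0.12 with array weights, and Il1rl1 0.02 with quantile scaling and 0.16 with the authors' values. With an array left out, Il18 ran from -0.06 to 0.35, Il1b from -1.24 to 0.39, Il1r1 from -0.71 to 0.33 and Il1rap from -0.05 to 0.50. Between cocultured genotypes, Il18 was -0.50 with array weights and -0.80 without the pair, Il1a -1.99 with the authors' values, Il1r2 -0.02 with normexp, and Il1rl1 -0.19 with normexp and -0.01 with the authors' values. Il1b was 0.09 with median scaling, 0.58 with the slide as a block, 0.11 with it as a random block, 1.24 with array weights and 2.76 without the pair. With an array left out, Il18 ran from -0.41 to 0.52, Il1a from -0.33 to 1.66, Il1b from -1.59 to 1.78, Il1r2 from -0.06 to 1.57 and Il1rap from -1.03 to 0.14. For the difference in response, Il18 was 0.78 with normexp, 0.15 with median scaling, 0.36 with quantile scaling and 0.08 with the slide as a block, Il1a -1.99, Il1b -0.76 and Il1rl1 -0.17 with the authors' values, and Il1b -0.44 with normexp. With an array left out, Il18 ran from -0.57 to 0.36, Il1a from -0.66 to 1.32 and Il1b from -1.12 to 2.25. Il1a, Il18 and Il1r1 had no signal above background in BMMCs, nor Il1a in wild-type cocultured cells without the pair, which limits those changes to bounds.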
